A study of Mus musculus with 8 samples.

Results

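Expression of 62 genes of the WNT pathway is described in mouse embryonic stem cells after inhibition of the histone methyltransferase MLL1, deletion of its gene, or treatment with 2 kinase inhibitors. The genes were chosen by symbol, from the families of WNT, Frizzled, DKK, SFRP and R-spondin genes and from a set of named co-receptors, intracellular components and targets. They are 62 of 51398 gene symbols in the deposited tables. All 62 were found. There were 19 ligands, the ligand acyltransferase Porcn, 10 Frizzled receptors, 2 co-receptors and 10 secreted or membrane antagonists. The remaining genes were 6 R-spondin and Lgr genes, 2 E3 ligases, 6 cytoplasmic components, 4 TCF/LEF factors and 2 further targets. Where a symbol had several loci, the locus with the highest mean level was used. Ctnnb1 shared a locus with Mir7090 and Znrf3 shared one with Kremen1, so these could not be separated.

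WNT proteins are secreted, lipid-modified signals that bind Frizzled receptors together with the co-receptors LRP5 or LRP6. Binding keeps the destruction complex of APC, the AXIN proteins and GSK3 from marking β-catenin for breakdown. β-catenin then enters the nucleus and acts through the TCF/LEF family on target genes, several of which, such as Axin2, Notum, Nkd1 and Dkk1, feed back on the pathway. In mouse embryonic stem cells WNT activity helps to maintain the undifferentiated state, largely by relieving repression through TCF7L1.

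RNA came from 8 libraries in 4 groups of 2, which the labels call biological duplicates. All cells were blastocyst-derived C57BL/6J stem cells of genotype Mll1fl/fl; Cre-ER TM, grown with LIF in KO DMEM on MEF feeder cells (growth-support fibroblasts). The first group was untreated and so carried the floxed alleles and the Cre without an agent, and the sources used here do not say in which of the media listed it was grown. The MM401 group received 100 µM of this MLL1 inhibitor, and the Mll1_deleted group received 5 µM 4-OHT, which activates the Cre recombinase, both in serum medium. The 2i group received 1 µM PD03259010, spelled so in the labels and the MEK inhibitor of the 2i pair, and 3 µM CHIR99021, an inhibitor of GSK3, in medium with the serum replacement KSR. Each treatment lasted 5 days. None of the 8 libraries is labelled as vehicle-treated, and the sources used here name neither the promoter that drives Cre-ER TM nor the number of clones. Effects of 4-OHT and of the loss of Mll1 cannot be told apart, nor can those of the 2i inhibitors and the KSR medium. Feeder RNA could enter every library.

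The deposited tables held 1 value per gene and group, so no value has an SD, an n or a p-value, and every difference below is a description of pooled libraries. Levels are FPKM (fragments scaled by the length of the transcript and by a factor for each group). They may be compared between genes because they are per length. For genes such as Wnt1, Fzd8 and Dkk3 the folds of FPKM and of estimated counts were equal. The estimated counts thus carried the same scaling between groups as FPKM. Square brackets hold the authors' lower and upper limits, whose level is not stated. Log2 ratios are of FPKM + 1 against untreated cells unless another group is named, and plain folds are ratios of FPKM. A gene counted as higher or lower, and is said to have risen or fallen, when the log2 ratio reached 1 in size (2-fold) and either group had an FPKM of at least 1. Total estimated counts, which carry this scaling and so do not measure sequencing depth, were between 76501619 and 90728747 per group. All 9 stem cell markers checked were at 1 FPKM or more in every group. In MM401 cells 3 of the 9 fell with separate intervals, Pou5f1 (874 to 294 FPKM, log2 ratio −1.57), Tdgf1 (337 to 114, −1.56) and Utf1 (332 to 103, −1.68), and the median ratio of the 9 was −0.50. Over all loci 4.01% were lower in MM401 cells with separate intervals. In Mll1_deleted and 2i cells 0 of the 9 passed the rule. The sum without Dppa5a, the most abundant of them, was 2538 in untreated, 1335 in MM401, 3171 in Mll1_deleted and 2898 FPKM in 2i cells. The part of this difference in the MM401 values below was not tested. Kmt2a, the gene that encodes MLL1, was at 15.5 [11.4 to 19.7] in untreated cells and 14.6 [10.3 to 18.8] with MM401. It was at 11.8 [8.71 to 14.9] after deletion and 8.72 [6.11 to 11.3] with 2i. Only the 2i interval lay below the untreated one. These values are for the gene as a whole, with any floxed part included, so they are no measure of the efficiency of deletion. In bulk RNA, fewer cells of a type and less RNA per cell cannot be told apart.

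The pathway was broadly expressed. Of the 62 genes, 43 were at 1 FPKM or more in untreated, 49 in MM401, 42 in Mll1_deleted and 41 in 2i cells. Of all 50060 named loci, 15352, 15927, 15418 and 15023 were, in the same order. That count was thus also highest in MM401 and lowest in 2i cells. The median level over all 62 was 2.26, 3.60, 2.41 and 2.83 FPKM in the same order. Genes under 1 FPKM in every group numbered 11, and they were the ligands Wnt1, Wnt2, Wnt2b, Wnt3a, Wnt7a, Wnt8b, Wnt9b and Wnt10b, the antagonist Dkk4, the receptor Lgr5 and the target Sp5. The highest level belonged to Ctnnb1, which encodes β-catenin, and in untreated cells it was followed by the antagonist Sfrp1 and the repressor Tcf7l1.

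Of the 3 comparisons with untreated cells, that of MM401 held the most changed genes. Of 51 genes at 1 FPKM or more in either group, 6 were higher, 5 lower and 40 neither. The higher genes were the ligands Wnt6, Wnt7b, Wnt9a and Wnt16, the R-spondin Rspo4 and the feedback inhibitor Nkd1, and the lower ones were Wnt5a, Porcn, Fzd5, Notum and Lef1. Of those counted, 11.8% were thus higher and 9.80% lower, where 7.03% of all 16768 loci were higher and 6.08% lower. With separate intervals there were 5 higher and 4 lower genes, and the shares over all loci were 4.42% and 4.01%. The median log2 ratio of the pathway genes was 0.11 and that of all loci was −0.04.

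In Mll1_deleted cells 0 of 45 genes were higher and 4 were lower, with 41 neither. The lower genes were Wnt5a, Dkk2, Notum and Lef1, or 8.89% of those counted. Over all 16235 loci 3.02% were higher and 3.66% lower. Of the lower genes 3 had separate intervals, Wnt5a being the exception, and 2.04% of all loci were lower with separate intervals. The medians were 0.11 for the pathway and 0.05 for all loci.

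In 2i cells 4 of 44 genes were higher and 2 lower, with 38 neither. The higher genes were Wnt11, Dkk1, Axin2 and Cdx1 and the lower ones Fzd7 and Lef1. Of those counted, 9.09% were higher against 2.92% of all 16039 loci, and 4.55% were lower against 4.16%, so the lower share lay near that of all loci. All 6 had separate intervals, and with that condition 1.71% of all loci were higher and 2.16% lower. The medians were 0.06 for the pathway and 0.08 for all loci. The 3 comparisons share the untreated value, so a gene that was high or low in untreated cells enters each of them.

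**Figure D1:**
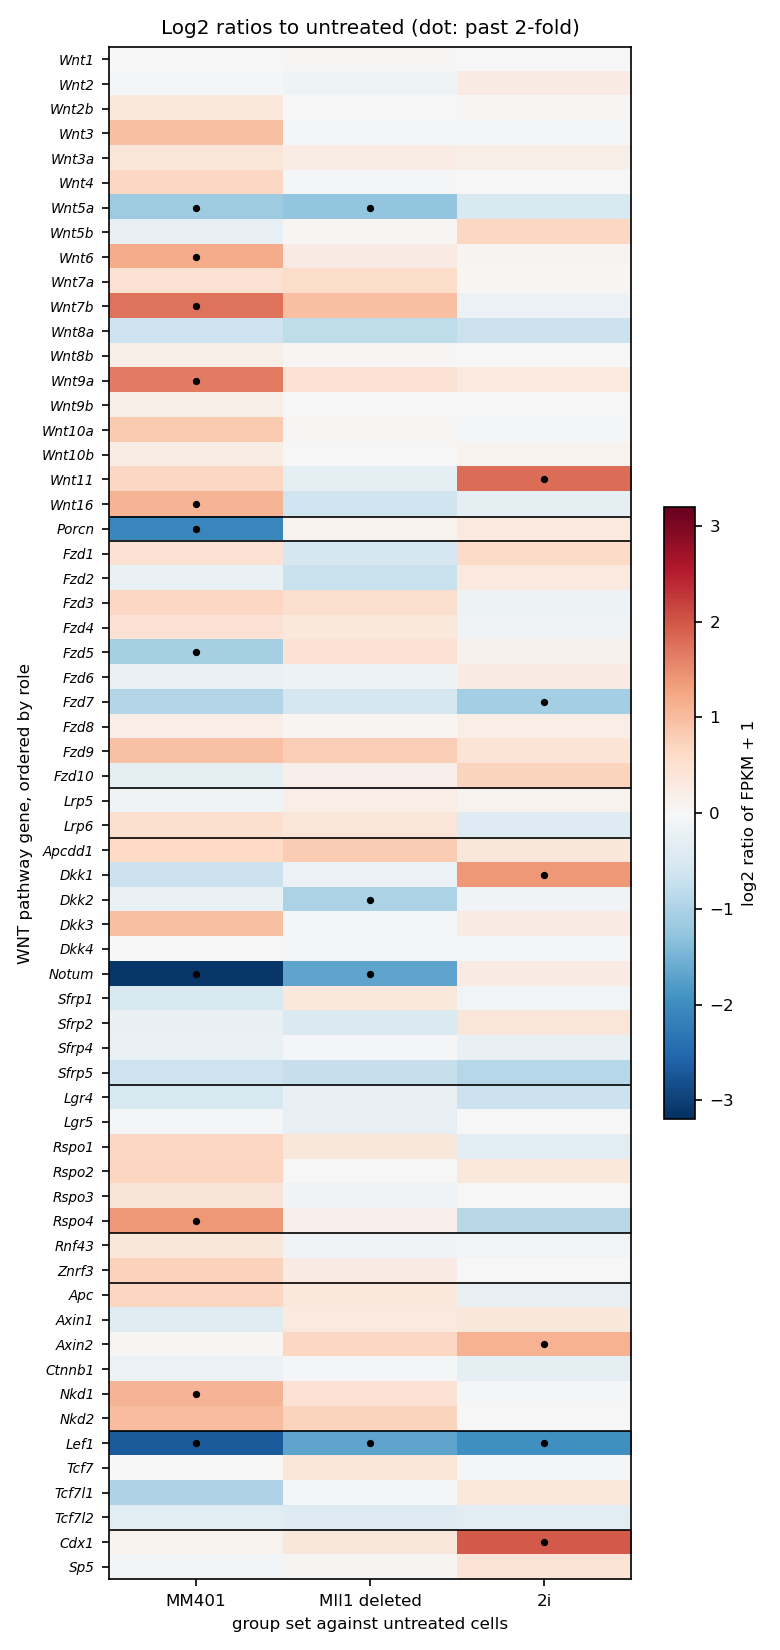
Heat map of log2 ratios of FPKM + 1 against untreated cells (colour, red above and blue below 0) for all 62 WNT pathway genes (rows, ordered by role) in the 3 treated groups (columns), with a dot where the 2-fold rule was passed. Lef1 has a dot in all 3 columns, Notum and Wnt5a in MM401 and Mll1_deleted, and Wnt11, Dkk1, Axin2 and Cdx1 in 2i alone.

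More genes passed a rule on counts, which differs from the FPKM rule in the measure, the pseudocount and the minimum. With estimated counts, 10 added to each, and at least 100 counts in either group, 16 of 53 genes were higher and 9 lower in MM401 cells, or 30.2% and 17.0%. Over all 16204 loci the same rule gave 9.84% higher and 7.08% lower. Also higher by this rule were Wnt2b, Wnt3, Wnt3a, Wnt4, Wnt10a, Fzd9, Dkk3, Rspo1, Rspo2 and Rnf43, and the further lower ones were Wnt8a, Dkk1, Sfrp5 and Tcf7l1. In Mll1_deleted cells 1 gene was higher, Wnt7b, and 6 of 49 were lower, now with Wnt8a and Sfrp5, beside 3.26% higher and 3.35% lower over all loci. In 2i cells 6 of 51 genes were higher, now with Rspo2 and Sp5, and 5 were lower, now with Wnt8a, Sfrp5 and Rspo4, beside 2.45% higher and 5.39% lower over all loci.

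In MM401 cells Wnt5a fell and 4 other ligands rose. Wnt5a encodes a ligand known mainly for β-catenin-independent signalling (chromosome 14, 28504543 to 28527448, mm10), and it was the most abundant ligand in untreated cells. Its level was 12.3 [5.75 to 18.9] in untreated cells, 5.07 [2.70 to 7.44] with MM401, 4.55 [2.24 to 6.85] after deletion and 8.48 [4.15 to 12.8] with 2i. It fell in MM401 (log2 ratio −1.13) and in Mll1_deleted cells (−1.26) and was at −0.49 in 2i cells, but its intervals overlapped the untreated one in every case. With the already scaled counts set once more to a common total, Wnt5a no longer passed the rule in MM401 cells. Exons of 12 of the 62 genes, among them Wnt5a, Wnt7b, Wnt11, Notum, Axin2, Lef1 and Tcf7l1, overlap those of a gene on the opposite strand, and the sources used here do not say if reads were counted by strand.

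The ligands that rose in MM401 cells were low in untreated cells. Wnt7b, a ligand needed in placental and lung development (chromosome 15, 85535437 to 85581821), was at 0.408 [0.271 to 0.546] in untreated cells, 3.68 [2.92 to 4.44] with MM401, 1.75 [1.34 to 2.15] after deletion and 0.239 [0.137 to 0.341] with 2i. It was the highest of these by ratio, 1.73 in MM401 and, short of the rule, 0.96 in Mll1_deleted cells. In FPKM it was 9.02-fold and 4.27-fold above untreated cells, both with separate intervals, whereas its 2i interval overlapped the untreated one.

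Wnt9a, a ligand known from joint and skeletal development (chromosome 11, 59306849 to 59333552), was at 0.969 [0.714 to 1.22] in untreated cells, 5.28 [4.23 to 6.33] with MM401, 1.72 [1.32 to 2.12] after deletion and 1.45 [1.11 to 1.79] with 2i. It had the highest ligand level in MM401 cells, 5.45-fold above untreated cells, with a log2 ratio of 1.67. That rank is not settled, since its MM401 interval lay within that of Wnt5a (2.70 to 7.44 FPKM). The MM401 and Mll1_deleted intervals of Wnt9a lay above the untreated one, but the Mll1_deleted ratio of 0.47 did not pass the rule.

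Wnt6 was at 1.05 [0.604 to 1.49] in untreated cells, 3.69 [2.38 to 5.00] with MM401, 1.44 [0.809 to 2.07] after deletion and 1.17 [0.697 to 1.65] with 2i. Its MM401 interval stood apart from the untreated one (log2 ratio 1.20), and those of the other groups overlapped it. Wnt16 was at 1.15 [0 to 2.94] in untreated cells, 3.54 [0 to 8.18] with MM401, 0.391 [0 to 0.838] after deletion and 0.754 [0 to 2.09] with 2i. The interval of Wnt16 began at 0 in every group, so its ratio of 1.08 in MM401 cells is imprecise.

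Wnt11, a ligand of gastrulation movements (chromosome 7, 98835084 to 98854747), followed another pattern. Its level was 1.66 [0.751 to 2.57] in untreated cells, 3.22 [2.25 to 4.20] with MM401, 1.19 [0.682 to 1.70] after deletion and 8.18 [6.12 to 10.2] with 2i. It was highest in 2i cells, where it rose 4.93-fold with a log2 ratio of 1.79 and a separate interval. The MM401 and Mll1_deleted intervals overlapped the untreated one.

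Further ligands that were low in untreated cells had MM401 levels above the untreated ones without passing the rule. Wnt3, a ligand required for primitive streak formation, was at 0.259 [0.148 to 0.370] in untreated cells, 1.44 [1.07 to 1.81] with MM401, 0.227 [0.112 to 0.341] after deletion and 0.223 [0.120 to 0.326] with 2i. Its MM401 interval stood apart, with a ratio of 0.96 just short of the rule. Wnt4 was at 0.546, 1.43, 0.517 and 0.554 FPKM in untreated, MM401, Mll1_deleted and 2i cells, and Wnt10a was at 0.313, 1.34, 0.350 and 0.273 in the same order. Of the 18 ligands with at least 10 estimated counts in either group, 10 had an MM401 interval wholly above the untreated one, 1 had one wholly below and 7 overlapped. The 10 were Wnt2b, Wnt3, Wnt3a, Wnt4, Wnt6, Wnt7b, Wnt8b, Wnt9a, Wnt9b and Wnt10a. Over all 22885 loci with at least 10 counts, 7.21% had an MM401 interval wholly above. The 1 below was Wnt8a, a ligand of the early posterior embryo.

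Wnt8a was at 1.02 [0.676 to 1.36] in untreated cells, 0.281 [0.149 to 0.414] with MM401, 0.153 [0.0445 to 0.262] after deletion and 0.262 [0.101 to 0.422] with 2i. Its intervals lay below the untreated one in all 3 treated groups, with ratios of −0.65, −0.81 and −0.68 that did not pass the rule. Wnt5b had 5 loci, and the one used rested on 8.58 to 20.6 estimated counts per group, with intervals that began at 0. Its locus with the most counts was at 0.810, 0.705, 0.932 and 1.80 FPKM in untreated, MM401, Mll1_deleted and 2i cells.

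Summed over the 19 ligands, the level was 22.9 FPKM in untreated, 33.3 in MM401, 16.2 in Mll1_deleted and 27.2 in 2i cells. Wnt5a made up 53.9% of the untreated sum and 15.3%, 28.0% and 31.1% of the others. Without Wnt5a the sums were 10.5, 28.2, 11.7 and 18.8 FPKM. The 2i value rested on Wnt11 and Wnt5b, since without these as well the sums were 6.58 in untreated, 23.2 in MM401, 8.06 in Mll1_deleted and 6.35 in 2i cells. At 1 FPKM or more there were 6, 10, 6 and 5 ligands, beside 15352, 15927, 15418 and 15023 of all named loci. Among the 11 ligands counted in MM401 cells, 4 were higher, 1 lower and 6 neither, with a median ratio of 0.83. The median was −0.11 in Mll1_deleted cells (0 of 8 higher, 1 lower) and 0.09 in 2i cells (1 of 7 higher, 0 lower). Over all loci 7.03%, 3.02% and 2.92% were higher in MM401, Mll1_deleted and 2i cells, and 6.08%, 3.66% and 4.16% were lower. The medians of all loci were −0.04, 0.05 and 0.08 in the same order. The summed level of 24 fibroblast markers was 1579 in untreated, 2402 in MM401, 1068 in Mll1_deleted and 3885 FPKM in 2i cells. The 2i sum rested largely on 3 collagen genes, Col3a1 (1884 [0 to 4039], a joint locus), Col1a1 (402) and Col1a2 (363). Marker by marker, MM401 was above 2i in 11 of the 24, with a median log2 ratio of −0.11. The part of feeder RNA in the ligand levels was not tested.

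**Figure D2:**
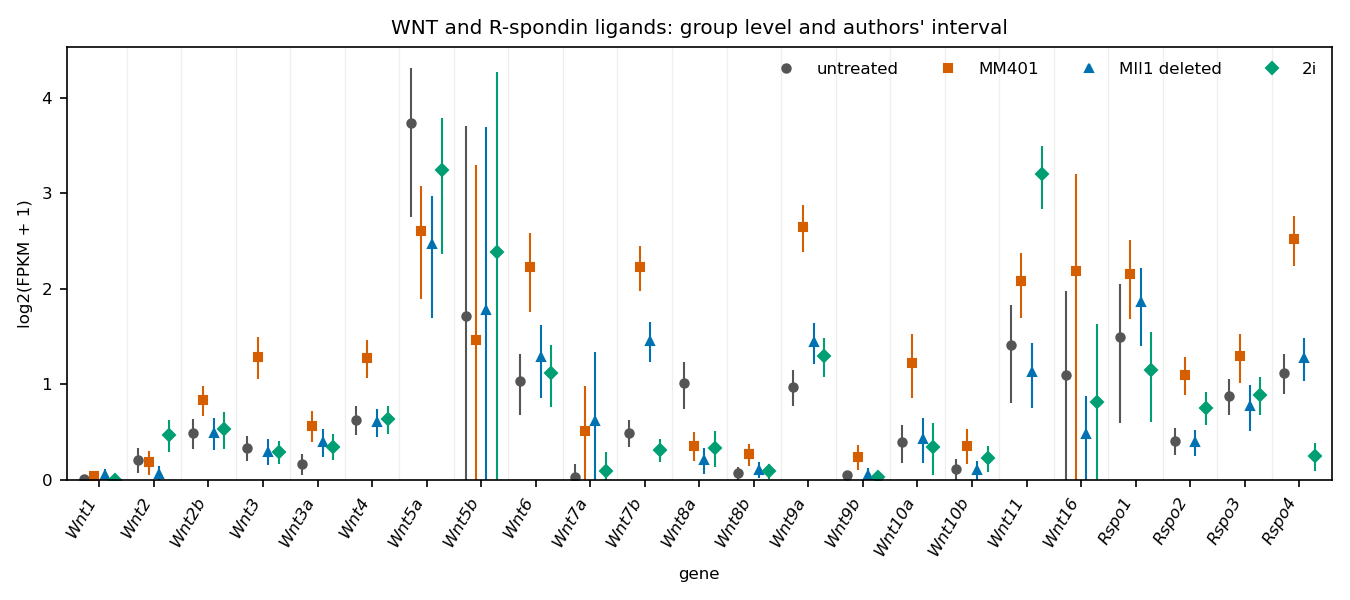
Level of the WNT and R-spondin ligands as log2(FPKM + 1) on the vertical axis, with 1 point per gene and group and bars for the authors' interval on the same scale. Wnt5a is highest in untreated cells (12.3 FPKM), Wnt9a, Wnt7b, Wnt6 and Rspo4 are highest in MM401 cells (5.28, 3.68, 3.69 and 4.73 FPKM) and Wnt11 is highest in 2i cells (8.18 FPKM).

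**Figure D3:**
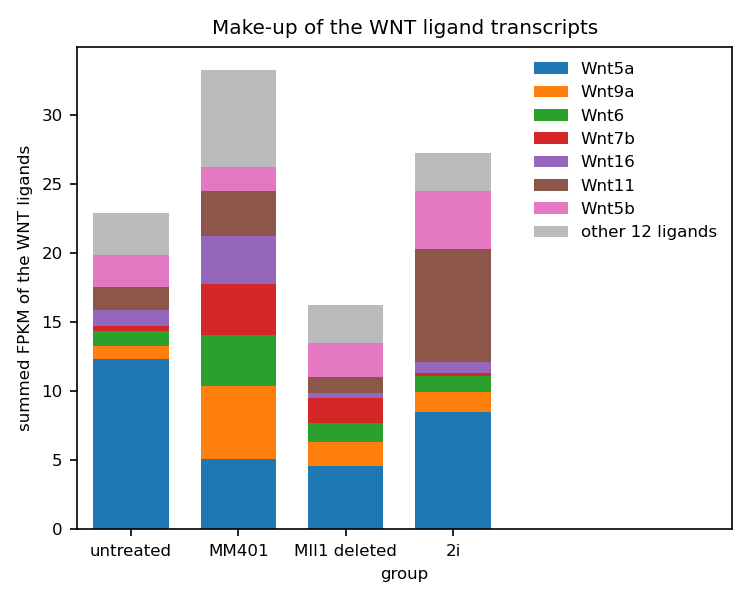
Stacked bars of the summed FPKM of the 19 WNT ligands in each group, with 7 ligands coloured and the other 12 in grey. The sums are 22.9 in untreated, 33.3 in MM401, 16.2 in Mll1_deleted and 27.2 in 2i cells, and Wnt5a makes up 53.9% in untreated and 15.3% in MM401 cells.

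Porcn, the membrane-bound acyltransferase that adds the lipid WNT proteins need for secretion (chromosome X, 8193846 to 8206548), was lowest in MM401 cells. Its level was 21.9 [17.4 to 26.5] in untreated cells, 4.42 [3.40 to 5.44] with MM401, 23.7 [19.1 to 28.3] after deletion and 27.3 [21.8 to 32.7] with 2i. It fell 4.96-fold in MM401 cells (log2 ratio −2.08, separate intervals), while the Mll1_deleted and 2i intervals overlapped the untreated one.

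All 10 Frizzled genes were at 1 FPKM or more in every group, and their sum was 93.0, 65.9, 94.6 and 88.2 FPKM in untreated, MM401, Mll1_deleted and 2i cells. Fzd5 and Fzd7 were the most abundant. Fzd7, a receptor abundant in pluripotent cells (chromosome 1, 59482147 to 59486955), was at 34.7 [28.3 to 41.1] in untreated cells, 17.7 [14.4 to 21.0] with MM401, 23.5 [19.2 to 27.8] after deletion and 15.9 [12.9 to 18.8] with 2i. All 3 treated intervals lay below the untreated one, and the 2-fold rule was passed only in 2i cells (log2 ratio −1.08, against −0.93 in MM401 and −0.54 in Mll1_deleted cells). Fzd5 (chromosome 1, 64730558 to 64737750) was at 30.2 [24.4 to 36.0] in untreated cells, 14.0 [11.2 to 16.8] with MM401, 42.1 [33.8 to 50.5] after deletion and 33.0 [26.5 to 39.5] with 2i. It fell only in MM401 cells (log2 ratio −1.06), where its interval lay below all others.

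The other 8 Frizzled genes were between 1.15 and 10.6 FPKM, and none passed the rule against untreated cells. Their lowest ratio was that of Fzd2 in Mll1_deleted cells (−0.70) and their highest that of Fzd9 in MM401 cells (0.93). Fzd9 was at 2.53 [1.94 to 3.11] in untreated cells, 5.71 [4.54 to 6.89] with MM401, 5.05 [4.00 to 6.10] after deletion and 3.77 [2.96 to 4.59] with 2i. Its intervals lay above the untreated one in MM401 and Mll1_deleted cells. Fzd1 was at 4.82 [3.87 to 5.76] in untreated cells, 7.06 [5.70 to 8.41] with MM401, 3.01 [2.39 to 3.63] after deletion and 7.89 [6.39 to 9.40] with 2i, and its interval lay below the untreated one in Mll1_deleted and above it in 2i cells. The median ratio of the Frizzled genes was 0.01 in MM401, 0.12 in Mll1_deleted and 0.24 in 2i cells.

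Neither co-receptor gene passed the rule. Lrp5 was at 26.7 [21.5 to 32.0] in untreated cells, 24.5 [19.8 to 29.3] with MM401, 31.0 [25.1 to 36.8] after deletion and 28.8 [23.4 to 34.2] with 2i, with overlapping intervals throughout. Lrp6 was at 19.3, 28.1, 25.7 and 14.3 FPKM in the same order. The tables mark its MM401 estimate as failed, and the limits there, which do not hold the value, are left out.

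The antagonists held the largest ratio against untreated cells of all 62 genes, that of Notum in MM401 cells. Notum encodes a secreted enzyme that removes the lipid from WNT proteins and is itself a WNT target (chromosome 11, 120653788 to 120661193). Its level was 24.4 [18.5 to 30.2] in untreated cells, 1.91 [1.21 to 2.62] with MM401, 6.91 [5.02 to 8.81] after deletion and 29.3 [22.3 to 36.4] with 2i. It fell 12.7-fold in MM401 (log2 ratio −3.12) and 3.53-fold in Mll1_deleted cells (−1.68), in both with separate intervals, and the 2i interval overlapped the untreated one. Notumos, which shares exons with it on the opposite strand, was at 1.59, 0.198, 0.521 and 1.75 FPKM in untreated, MM401, Mll1_deleted and 2i cells, and reads of the pair cannot be told apart without strand.

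The DKK genes, whose best-known proteins block LRP5 and LRP6, moved separately. Dkk1 (chromosome 19, 30545876 to 30549496) was at 1.20 [0.872 to 1.52] in untreated cells, 0.353 [0.205 to 0.5001] with MM401, 0.932 [0.661 to 1.20] after deletion and 4.77 [3.78 to 5.77] with 2i. It rose 3.99-fold in 2i cells (log2 ratio 1.39, separate intervals), and in MM401 cells its interval lay below the untreated one with a ratio of −0.70. Dkk2 was at 4.41 [3.52 to 5.29] in untreated cells, 3.66 [2.91 to 4.40] with MM401, 1.67 [1.29 to 2.05] after deletion and 3.98 [3.18 to 4.79] with 2i. It fell in Mll1_deleted cells (log2 ratio −1.02, separate intervals) and had overlapping intervals elsewhere. Dkk3, a divergent family member, was at 11.8 [9.54 to 14.0] in untreated cells, 24.0 [19.5 to 28.4] with MM401, 11.2 [9.06 to 13.3] after deletion and 14.2 [11.5 to 16.9] with 2i. Only its MM401 interval stood apart, and its ratio of 0.97 was short of the rule.

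The SFRP genes encode secreted proteins that bind WNT. Sfrp1, the most abundant antagonist in every group, was at 64.2 [52.5 to 76.0] in untreated cells, 45.9 [37.5 to 54.3] with MM401, 81.5 [66.7 to 96.4] after deletion and 60.6 [49.5 to 71.6] with 2i, with intervals that overlapped the untreated one. Sfrp5 was at 3.04 [2.33 to 3.75] in untreated cells, 1.57 [1.13 to 2.01] with MM401, 1.44 [1.04 to 1.84] after deletion and 1.14 [0.804 to 1.48] with 2i. All 3 treated intervals of Sfrp5 lay below the untreated one, with ratios of −0.65, −0.73 and −0.92 that did not pass. Sfrp2 and Sfrp4 had overlapping intervals in every comparison with untreated cells, and Sfrp2 was at 19.2, 16.1, 13.7 and 25.6 FPKM. The membrane antagonist Apcdd1 was at 4.49 [3.56 to 5.41] in untreated cells, 7.50 [5.96 to 9.04] with MM401, 8.61 [6.94 to 10.3] after deletion and 6.09 [4.84 to 7.33] with 2i, with MM401 and Mll1_deleted intervals above the untreated one and ratios of 0.63 and 0.81. In all, 1 of 9 antagonists counted was lower and 0 higher in MM401 cells. In Mll1_deleted cells 2 were lower and 0 higher, and in 2i cells 1 was higher and 0 lower. Over all loci 6.08%, 3.66% and 4.16% were lower in MM401, Mll1_deleted and 2i cells, and 7.03%, 3.02% and 2.92% were higher. With 9 genes, 1 or 2 calls are too few to set against these shares.

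R-spondins bind the LGR receptors and clear the ligases RNF43 and ZNRF3, which otherwise remove Frizzled receptors from the cell surface. Rspo4 (chromosome 2, 151842647 to 151874668) was at 1.18 [0.861 to 1.49] in untreated cells, 4.73 [3.71 to 5.76] with MM401, 1.43 [1.05 to 1.80] after deletion and 0.186 [0.0672 to 0.304] with 2i. It rose 4.03-fold in MM401 cells (log2 ratio 1.40), and its 2i interval lay below the untreated one with a ratio of −0.88. Of the other R-spondins, Rspo2 was at 0.326, 1.14, 0.312 and 0.687 FPKM in untreated, MM401, Mll1_deleted and 2i cells. The MM401 and 2i intervals of Rspo2 lay above the untreated one, and neither ratio (0.69 and 0.35) passed. Rspo1 and Rspo3 had ratios of 0.66 and 0.41 in MM401 cells, with overlapping intervals.

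Lgr4, the abundant receptor for R-spondins in these cells, was at 23.9 [19.1 to 28.8] in untreated cells, 16.4 [12.9 to 19.8] with MM401, 20.1 [16.1 to 24.0] after deletion and 14.6 [11.6 to 17.7] with 2i. It did not pass the rule in any group, and only its 2i interval lay below the untreated one (log2 ratio −0.68). The Znrf3 locus, shared with Kremen1, was at 12.3 [9.86 to 14.8] in untreated cells, 21.2 [17.0 to 25.5] with MM401, 15.0 [12.02 to 18.04] after deletion and 12.4 [9.95 to 14.8] with 2i. Its MM401 interval lay above the untreated one (log2 ratio 0.74). Rnf43 was at 0.809, 1.31, 0.680 and 0.713 FPKM, with overlapping intervals.

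**Figure D4:**
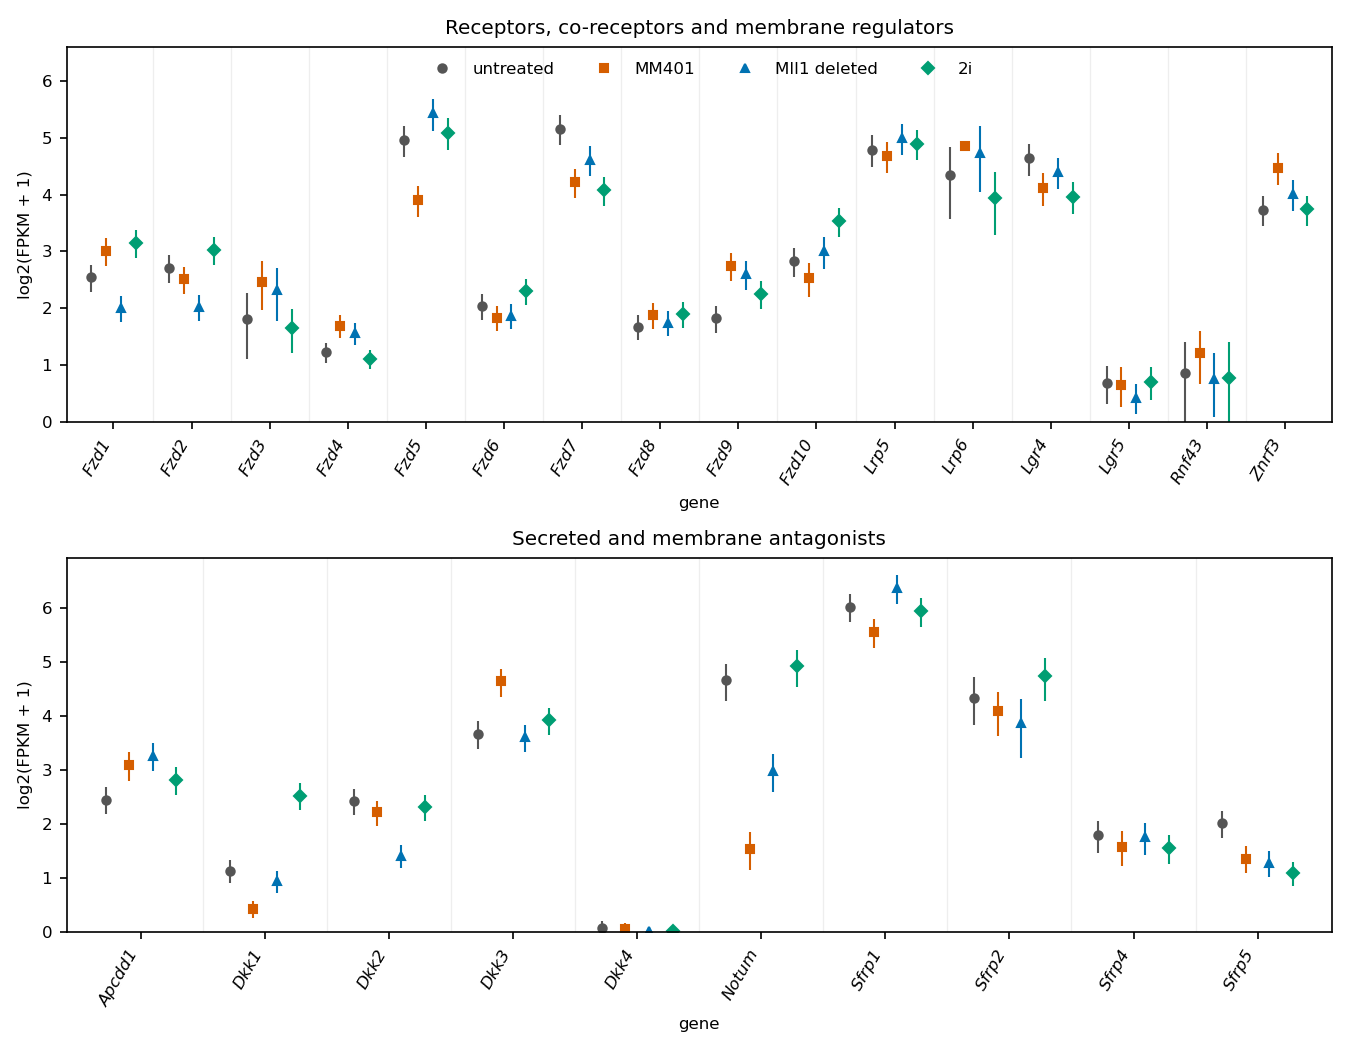
Level as log2(FPKM + 1) of the receptors, co-receptors, Lgr genes and E3 ligases (upper panel) and of the antagonists (lower panel), with 1 point per gene and group and bars for the authors' interval, which Lrp6 lacks in MM401 cells. Fzd5 is lowest in MM401 cells (14.0 FPKM), Notum is at 24.4 FPKM in untreated and 1.91 in MM401 cells, and Dkk1 is highest in 2i cells (4.77 FPKM).

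Among cytoplasmic components Ctnnb1, Axin1 and Apc did not pass the rule. The Ctnnb1 locus was at 643 [491 to 796] in untreated cells, 566 [437 to 695] with MM401, 615 [468 to 762] after deletion and 523 [397 to 649] with 2i, with overlapping intervals throughout. Axin1, the constitutive scaffold, was at 51.7 [23.9 to 79.6] in untreated cells, 39.1 [18.6 to 59.6] with MM401, 64.3 [31.1 to 97.5] after deletion and 66.6 [30.1 to 103] with 2i, and Apc was at 10.9 [8.84 to 13.0] in untreated cells, 18.1 [8.43 to 27.8] with MM401, 14.2 [8.31 to 20.1] after deletion and 8.91 [5.41 to 12.4] with 2i. Neither passed the rule in any group, and their intervals overlapped the untreated ones. These are RNA levels, so they do not measure the amount or place of β-catenin protein.

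The feedback inhibitors differed. Axin2, a scaffold whose gene is a widely used WNT target (chromosome 11, 108917828 to 108950783), was at 4.38 [3.17 to 5.59] in untreated cells, 4.55 [2.68 to 6.42] with MM401, 7.54 [5.06 to 10.02] after deletion and 10.6 [7.66 to 13.4] with 2i. It rose in 2i cells (log2 ratio 1.10, separate intervals), was at 0.67 in Mll1_deleted cells with overlapping intervals, and was nearly level in MM401 cells (0.05). Nkd1, which binds Dishevelled and dampens the signal (chromosome 8, 88521342 to 88594887), was at 2.23 [1.35 to 3.11] in untreated cells, 5.85 [3.97 to 7.74] with MM401, 3.48 [2.40 to 4.56] after deletion and 2.16 [1.37 to 2.95] with 2i. It rose in MM401 cells (log2 ratio 1.08, separate intervals) and was level in 2i cells (−0.03). Nkd2 was at 2.16 [1.07 to 3.25] in untreated cells, 5.27 [3.65 to 6.88] with MM401, 4.19 [2.55 to 5.83] after deletion and 2.21 [1.38 to 3.04] with 2i, and its MM401 ratio of 0.99 was just short of the rule.

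Lef1 was the only one of the 62 genes that passed the rule in all 3 comparisons with untreated cells, which share the untreated value. It encodes a TCF/LEF factor that activates with β-catenin and is itself a WNT target (chromosome 3, 131110297 to 131224357). Its level was 14.3 [7.77 to 20.9] in untreated cells, 1.39 [0.308 to 2.48] with MM401, 3.77 [2.097 to 5.43] after deletion and 2.94 [1.03 to 4.86] with 2i. It fell 10.3-fold in MM401, 3.81-fold in Mll1_deleted and 4.87-fold in 2i cells, with log2 ratios of −2.68, −1.69 and −1.96 and separate intervals. The treated intervals overlapped each other.

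The other 3 TCF genes did not pass the rule. Tcf7l1, the main TCF repressor of stem cells, was at 55.8 [39.6 to 71.97] in untreated cells, 27.6 [20.0 to 35.1] with MM401, 53.4 [37.9 to 68.9] after deletion and 70.3 [50.5 to 90.0] with 2i. Its MM401 interval lay below the untreated one, with a ratio of −0.99. Tcf7 was at 31.8 [14.7 to 48.8] in untreated cells, 32.3 [17.2 to 47.4] with MM401, 41.7 [23.7 to 59.6] after deletion and 30.6 [13.5 to 47.8] with 2i, and Tcf7l2 was at 13.0 [8.28 to 17.7] in untreated cells, 9.97 [6.23 to 13.7] with MM401, 9.58 [7.03 to 12.1] after deletion and 10.03 [7.01 to 13.0] with 2i. The intervals of both overlapped in every comparison with untreated cells.

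The makeup of the family differed between groups. The summed level of the 4 genes was 115 in untreated, 71.3 in MM401, 108 in Mll1_deleted and 114 FPKM in 2i cells. Lef1 made up 12.5% of the untreated sum and 1.96%, 3.47% and 2.59% of the others. Tcf7l1 was the largest part in untreated (48.5%), Mll1_deleted (49.2%) and 2i cells (61.7%), whereas Tcf7 was the largest in MM401 cells (45.4%, with Tcf7l1 at 38.7%). The intervals of Tcf7 and Tcf7l1 overlapped in MM401 cells.

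**Figure D5:**
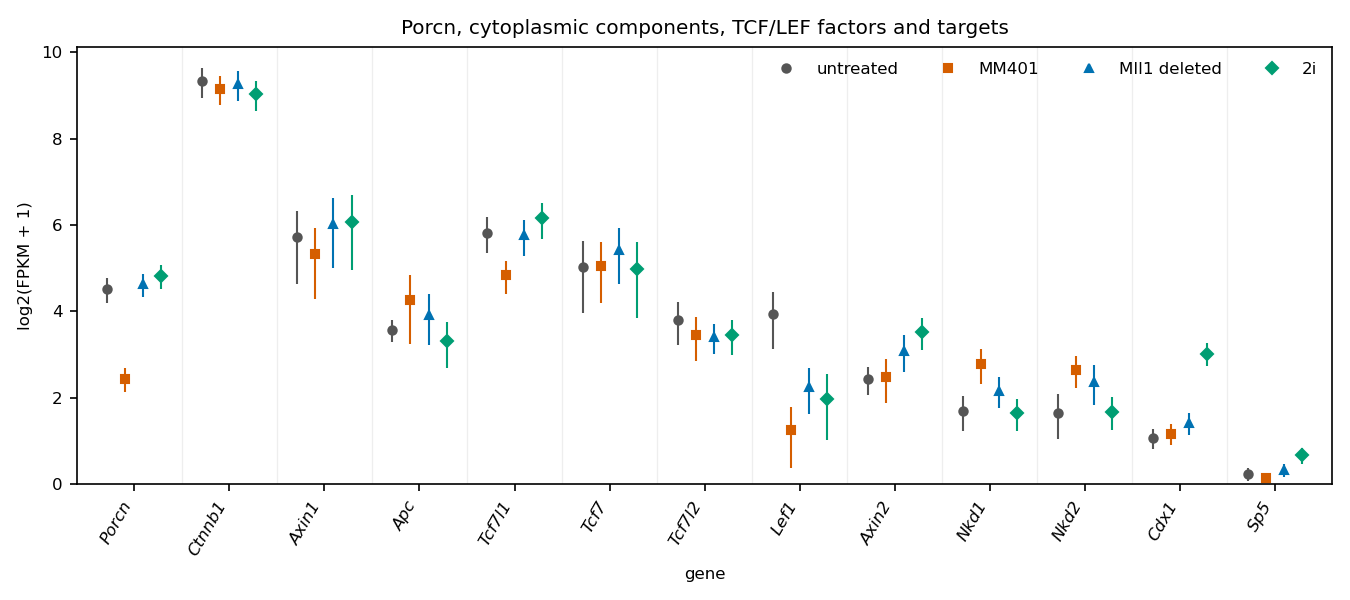
Level as log2(FPKM + 1) of Porcn, the cytoplasmic components, the TCF/LEF factors and the targets, with 1 point per gene and group and bars for the authors' interval. Porcn is lowest in MM401 cells (4.42 FPKM), Lef1 is at 14.3 FPKM in untreated and between 1.39 and 3.77 in treated cells, and Axin2 and Cdx1 are highest in 2i cells (10.6 and 7.12 FPKM).

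The further targets Cdx1 and Sp5 were highest in 2i cells. Cdx1, a homeobox gene of the posterior embryo, was at 1.09 [0.753 to 1.43] in untreated cells, 1.25 [0.873 to 1.63] with MM401, 1.68 [1.21 to 2.14] after deletion and 7.12 [5.64 to 8.59] with 2i. It rose 6.52-fold in 2i cells (log2 ratio 1.96), with the 2i interval apart from all others. Sp5, a zinc finger gene that responds directly to WNT, was at 0.178 [0.0605 to 0.295] in untreated cells, 0.111 [0.0149 to 0.206] with MM401, 0.253 [0.117 to 0.388] after deletion and 0.590 [0.379 to 0.8005] with 2i. Its 2i interval lay above the untreated one, and it stayed under 1 FPKM, outside the rule. Of the feedback genes and targets Axin2, Nkd1, Notum, Dkk1, Lef1, Cdx1 and Sp5, the 2i values were thus higher by the rule for Axin2, Dkk1 and Cdx1, lower for Lef1, and neither for Notum, Nkd1 and Sp5.

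Promoters of 4 of the genes at their highest level in 2i cells are printed, to show how they differ in TCF/LEF consensus letters. They are examples and do not stand for all such genes. Fzd1, Fzd10, Tcf7l1, Sfrp2 and Wnt2 were also highest in 2i cells, and their windows, not printed, held 0 matches. Wnt5b, highest there as well, held 1 match in 1 of its several windows and 0 in the others. The printed promoters are RefSeq sequences on GRCm38.p6, from 250 bases before to 50 after the start, 5′ to 3′ on the gene's strand. Capitals mark the motif CTTTGAA, its variant CTTTGAT, its variant CTTTGTA or its variant CTTTGTT on either strand, and no match overlaps another. Dkk1 is at chr19:30549447-30549746 (minus strand), Sp5 at chr2:70474673-70474972 (plus), Wnt11 at chr7:98834862-98835161 (plus) and Axin2 at chr11:108920099-108920398 (plus).
Dkk1: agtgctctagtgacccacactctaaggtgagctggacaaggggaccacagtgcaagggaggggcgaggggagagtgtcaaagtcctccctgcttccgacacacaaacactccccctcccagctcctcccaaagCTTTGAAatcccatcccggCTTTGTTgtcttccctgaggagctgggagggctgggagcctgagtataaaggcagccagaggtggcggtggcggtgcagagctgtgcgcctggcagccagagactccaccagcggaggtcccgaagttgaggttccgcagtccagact
Sp5: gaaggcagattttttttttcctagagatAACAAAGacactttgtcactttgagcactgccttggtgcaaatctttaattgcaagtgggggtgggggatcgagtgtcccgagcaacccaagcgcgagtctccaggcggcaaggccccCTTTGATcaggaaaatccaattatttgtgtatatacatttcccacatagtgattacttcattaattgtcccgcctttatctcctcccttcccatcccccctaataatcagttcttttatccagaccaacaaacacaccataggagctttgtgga
Wnt11: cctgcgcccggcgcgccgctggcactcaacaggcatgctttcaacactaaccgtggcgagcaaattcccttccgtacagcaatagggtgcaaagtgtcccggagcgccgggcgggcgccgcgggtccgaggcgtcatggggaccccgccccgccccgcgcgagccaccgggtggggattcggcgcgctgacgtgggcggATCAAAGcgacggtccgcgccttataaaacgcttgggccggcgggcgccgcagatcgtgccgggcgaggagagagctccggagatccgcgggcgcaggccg
Axin2: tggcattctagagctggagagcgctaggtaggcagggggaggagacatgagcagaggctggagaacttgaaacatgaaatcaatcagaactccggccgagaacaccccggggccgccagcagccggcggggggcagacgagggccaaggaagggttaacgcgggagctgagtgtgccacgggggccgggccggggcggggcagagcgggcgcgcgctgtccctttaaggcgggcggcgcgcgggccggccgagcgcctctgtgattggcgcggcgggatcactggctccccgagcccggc
Dkk1 and Sp5 each held 2 matches, Wnt11 held 1 and Axin2 held 0 in the window printed. Another Wnt11 window (chr7:98838595-98838894), not printed, held 0 matches. The Axin2 window belongs to a start inside the gene, downstream of the gene start at 108917828. Its 0 thus does not describe the sequence before that first start. In Dkk1 CTTTGAA began 117 and CTTTGTT 98 bases before the start, both on the strand of the gene. Over the 38 pathway genes found in the promoter table, 8 of 48 promoters held a match, or 16.7%, where 5544 of all 32851 promoters did, or 16.9%. The shares were nearly equal, and a match describes letters and is not a binding site.

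The treated groups were also set against each other, and these comparisons reuse the values above. Between MM401 and Mll1_deleted cells 5 of 49 genes were higher in MM401 and 3 lower, or 10.2% and 6.12%, where 5.51% and 5.03% of all 16668 loci were. The higher genes were Wnt9a (1.21), Wnt16 (1.71), Fzd1 (1.01), Dkk3 (1.04) and Rspo4 (1.24), and the lower ones Porcn (−2.19), Fzd5 (−1.53) and Notum (−1.44). Only Wnt16 had overlapping intervals. Porcn was 5.37-fold higher in Mll1_deleted than in MM401 cells, and Notum, which fell in both against untreated cells, was 3.61-fold higher.

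Between MM401 and 2i cells 7 of 50 genes were higher in MM401 and 8 lower, or 14.0% and 16.0%, where 10.4% and 11.1% of all 16775 loci were. The higher genes were Wnt6, Wnt7b, Wnt9a, Wnt16, Rspo1, Rspo4 and Nkd1, of which Rspo4 had the highest ratio (2.27). The lower genes were Wnt11, Porcn, Fzd5, Dkk1, Notum, Axin2, Tcf7l1 and Cdx1, of which Notum had the lowest ratio (−3.38), 15.3-fold in FPKM. The intervals were separate for all of them but Wnt16.

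Between Mll1_deleted and 2i cells 2 of 43 genes were higher in Mll1_deleted and 6 lower, or 4.65% and 14.0%, where 5.96% and 5.18% of all 16224 loci were. Wnt7b (1.15) and Rspo4 (1.03) were higher. The lower genes were Wnt11 (−2.07), Fzd1 (−1.15), Fzd2 (−1.02), Dkk1 (−1.58), Notum (−1.94) and Cdx1 (−1.60). All 8 had separate intervals.

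A list of 58 other genes of the pathway, drawn up with earlier results of these data known, was counted beside all loci. In MM401 cells 2 of 53 were higher (3.77%, where 7.03% of all loci were) and 3 lower (5.66%, against 6.08%). The higher ones were Cby1, an inhibitor of β-catenin (24.6 to 52.1 FPKM, log2 ratio 1.05), and Bcl9l, a β-catenin co-activator (7.92 to 18.7, 1.14, overlapping intervals). The lower ones were Cer1, a secreted inhibitor of NODAL, BMP and WNT (−2.21), the TCF co-repressor Tle4 (33.8 to 11.9, −1.43) and the cadherin Celsr3 (−1.22, overlapping intervals). In Mll1_deleted cells 0 of 51 were higher and 2 lower (3.92%, against 3.66% of all loci), Cer1 (−2.14) and the WNT-binding antagonist Frzb (−1.26, overlapping intervals). In 2i cells 0 of 51 were higher and 3 lower (5.88%, against 4.16%), Cer1 (−2.21), Frzb (−1.42, overlapping intervals) and the glypican Gpc3 (−1.23). Cer1 was at 3.69 [2.79 to 4.59] in untreated cells and under 0.1 FPKM in each treated group.

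Of 11 further WNT targets, 1 of 6 counted was lower in MM401 cells, where 6.08% of all loci were. It was the cyclin gene Ccnd1, at 94.8 [63.0 to 127] in untreated and 23.3 [15.1 to 31.6] in MM401 cells. None of those counted passed in Mll1_deleted or 2i cells. Of 9 genes known to be repressed by TCF7L1, 8 were counted in each comparison. In MM401 cells 3 were lower, the pluripotency factors Nr0b1 (−2.57), Klf2 (−1.75) and the AKT co-activator gene Tcl1 (−1.12), beside 6.08% of all loci. In Mll1_deleted cells 1 was lower, the endoderm factor Foxa2 (−1.64), beside 3.66% of all loci. In 2i cells 1 was higher, Klf2 (95.0 to 255 FPKM, 1.41), beside 2.92% of all loci. The median ratio in 2i cells was 0.49, where that of all loci was 0.08. The 2i intervals of Klf2, Esrrb and Tcl1 lay above the untreated ones. Those of Nanog, Nr0b1, Nr5a2, Foxa2 and Tfcp2l1 overlapped them. Tfcp2l1 shared a locus with Gm23497, and its interval began at 0 in every group.

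Markers of other cell types were also set against untreated cells. Of 24 fibroblast markers, 24 were at 1 FPKM or more in untreated, MM401 and 2i cells and 23 in Mll1_deleted cells, and none was at 0. The median ratio was 0.45 in MM401 (4 higher, 1 lower), −0.53 in Mll1_deleted (0 higher, 2 lower) and 0.66 in 2i cells (7 higher, 0 lower). In the same order 7.03%, 3.02% and 2.92% of all loci were higher, and 6.08%, 3.66% and 4.16% were lower. Primitive endoderm markers, 12 in all, summed to 926, 872, 473 and 1606 FPKM in untreated, MM401, Mll1_deleted and 2i cells, and 4, 9 and 1 of them were lower in MM401, Mll1_deleted and 2i cells, where 6.08%, 3.66% and 4.16% of all loci were. None was higher in MM401 or Mll1_deleted cells, and 1 was higher in 2i cells, Sox17 (1.24, separate intervals). Trophectoderm markers, 8 in all, summed to 62.8, 76.0, 74.2 and 59.3 FPKM. In Mll1_deleted cells 2 of 6 counted were higher, where 3.02% of all loci were, and 0 were lower. In MM401 cells 0 of 6 and in 2i cells 0 of 5 passed the rule. Of 8 primitive streak and mesoderm markers, 3, 2 and 3 were counted in MM401, Mll1_deleted and 2i cells, and 0 passed. The part of these cell types in the levels of the WNT pathway genes was not tested.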

How the data were processed

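RNA sequencing of 8 libraries was deposited as 2 tables with 1 column per group, so the authors had combined the libraries of a group. FPKM values, per the file headers, were deposited with a lower and an upper limit. The deposited estimated counts are fragments per locus that need not be whole and that carry the scaling of FPKM between groups. Tools listed in the submitters' processing notes, without roles, are SAMtools 1.5, deepTools and TopHat2 2.1.1, and the build is mm10. Of 61535 loci, 11475 had no gene name (0.324% to 0.405% of counts) and were left out, and 1793 joined several names. No value column was unmapped. Values with the status HIDATA were treated as missing, and limits with the status FAIL were dropped.

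Without replicates in the tables, the design's fold rule (pseudocount 1, minimum FPKM 1, 2-fold) was used and no test was made. The code of the rule was run on the untreated values with large changes planted and no noise. Recovery of these was fixed in advance, so it does not measure the error of the rule. Estimated counts were used only in alternatives and in interval counts, as deposited. Total estimated counts per group are in the report, and the intervals are the authors' own. Pathway genes described in full, 28 in all, were those past the rule against untreated cells, the most abundant of each role, and Ctnnb1, Axin1, Axin2, Apc, Lef1, Tcf7, Tcf7l1, Tcf7l2, Cdx1, Sp5 and Nkd1; others are named as examples, picked with values in view. The genes, lists and rules were chosen with earlier results of these data known. Gene coordinates, counted from 1, and promoters are from RefSeq, GRCm38.p6, and exon overlaps from GENCODE on GRCm38. Python 3.11.15, pandas 2.3.3, NumPy 2.4.6 and matplotlib 3.10.9 were used.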

Additional observations from a re-analysis of the deposited data

How the results depend on the processing

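Of 108 counts of changed pathway genes recomputed under 12 alternatives, 67 stayed within 1.5 times the value in the report and 41 moved, and no gene described in full reversed. Counts are given in the order higher and lower in MM401, higher and lower in Mll1_deleted, higher and lower in 2i, then either way between MM401 and Mll1_deleted, MM401 and 2i, and Mll1_deleted and 2i. The values in the report are 6, 5, 0, 4, 4, 2, 8, 15 and 8. A 1.5-fold threshold gave 19, 10, 5, 8, 7, 6, 22, 30 and 17. A pseudocount of 0.1 gave 13, 8, 1, 7, 4, 5, 17, 24 and 10, and one of 5 gave 0, 3, 0, 2, 0, 1, 2, 4 and 2. Estimated counts with a minimum of 100 gave 16, 9, 1, 6, 6, 5, 21, 24 and 13, and scaled to a common total with a minimum of 10 they gave 21, 6, 3, 7, 5, 5, 25, 29 and 15. That scaling was laid over counts that already shared the scaling of FPKM. A minimum FPKM of 5 gave 2 higher in MM401, 9 between MM401 and 2i and 5 between Mll1_deleted and 2i. The larger pseudocount and minimum by construction damp or drop low genes, which most of the changed ligands are. Of the 21 calls of genes described in full, 6 were kept with a pseudocount of 5, 15 with a minimum FPKM of 5, and all but Wnt5a in MM401 cells with scaled counts. Taking the locus with the most counts per symbol, an alternative chosen after seeing the data, kept all 21.

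No paired analysis was possible because the deposited tables hold 1 column per group, and for the same reason leaving out a replicate was not run. The values rest on pooled libraries, so differences near 2-fold, such as those of Fzd5, Nkd1, Dkk2 and Wnt16, have no replicate check.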
